A study of Mus musculus with 8 samples.

Results

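The inhibitors of cyclin-dependent kinases (CDKs) and the retinoblastoma family, the proteins that stop cells before DNA synthesis, were examined in label-retaining and non-label-retaining cholangiocytes of the mouse liver. The set was fixed by name and comprised 10 of the 46603 rows of the count table. It held the Cip/Kip inhibitors Cdkn1a, Cdkn1b and Cdkn1c, the Ink4 inhibitors Cdkn2a, Cdkn2b, Cdkn2c and Cdkn2d, and the pocket protein genes Rb1, Rbl1 and Rbl2. RNA was sequenced from 8 libraries of sorted liver cells, 1 of EGFP-positive and 1 of EGFP-negative cells for each of 4 mice (JV602, JV621, JV624 and JV6314). The comparison addresses what sets biliary cells that retain the nuclear label apart from those that have lost it. All mice were R26rtTA het/H2B-EGFP het on a mixed C57BL/6 and CBA background, got doxycycline between birth and postnatal day 5, and were 8 weeks old at the sort. The doxycycline-dependent activator was expressed from the ubiquitously active Rosa26 locus, so that the label was not limited to biliary cells, and hematopoietic cells of these mice also make H2B-EGFP without doxycycline. Label-retaining cells (LLRCs) were sorted as EGFP+EpCAM+CD45- and non-LRC cells as EGFP-EpCAM+CD45-, and the groups differed in no other label.

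Cyclin D with CDK4 or CDK6, and cyclin E with CDK2, phosphorylate the pocket proteins RB, p107 and p130 during the G1 phase of the cell cycle. Unphosphorylated pocket proteins hold E2F transcription factors and keep the genes of DNA synthesis and mitosis off, and p130, with E2F4 or E2F5 and the MuvB proteins, forms the repressor complex typical of resting cells. Ink4 proteins block CDK4 and CDK6, whereas Cip/Kip proteins bind a wider range of cyclin-CDK complexes, and most adult cholangiocytes are at rest.

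LLRC libraries had total counts from 7860021 to 9851819 and non-LRC libraries from 4670132 to 8056103, and 3 counts, the limit that a count of 0 allows, corresponded to between 0.291 and 0.626 CPM (counts scaled by TMM to a shared depth). This limit covers counting error only. The non-LRC library of JV621 stood apart. Of 10565 genes with a mean of at least 5 CPM, 9.84% were at 0 there and between 0.492% and 3.62% in the other 7 libraries. Of the 10 genes, 4 had reads in that library, against 8 or 9 in each of the others. Epcam, the sort marker, stood at 583.5 ± 48.6 CPM in LLRCs against 551.0 ± 148.3 CPM in non-LRC cells, and the biliary keratin Krt19 at 116.2 ± 28.0 CPM and 133.8 ± 33.1 CPM (SD, n = 4 throughout). Of 21 cholangiocyte markers, all tested, 18 had higher and 3, Krt19 among them, lower estimates in LLRCs. They summed to between 118637 and 225322 CPM in LLRC libraries and between 68802 and 167345 CPM in non-LRC libraries, and without Spp1, the most abundant, to between 6678 and 7282 CPM and between 4554 and 8197 CPM. Other cell types were not equally represented. The 20 endothelial markers, all of them read, summed to between 40.9 and 102.7 CPM in LLRC libraries and between 321.6 and 1658 CPM in non-LRC libraries, and all 17 tested had lower estimates in LLRCs. The 15 hepatocyte markers, all tested, had 12 lower and 3 higher estimates in LLRCs and summed to between 3805 and 4662 CPM in LLRC libraries and between 2716 and 8313 CPM in non-LRC libraries. Of 12 stellate cell and fibroblast markers 7 were tested, 5 with lower and 2 with higher estimates. Their sums, between 2472 and 9950 CPM and between 3520 and 9194 CPM, were mostly Rgs5, with means of 6211 and 4177 CPM, and without it they were between 275.8 and 908.6 CPM and between 704.1 and 2923 CPM, lower in the LLRC library of each mouse. Both groups were sorted as CD45-, but Ptprc, which encodes CD45, stood at 0.485, 4.02, 2.06 and 6.55 CPM in LLRCs of the mice JV602, JV621, JV624 and JV6314 and at 0, 0, 0 and 1.38 CPM in non-LRC cells (log2 fold change 3.27, SE 1.42, adjusted p = 0.957 in edgeR). Of the 4 leukocyte markers tested it alone had a higher estimate in LLRCs, and 3 had lower ones. Leukocyte markers together summed to between 38.7 and 139.7 CPM in LLRC libraries and between 60.5 and 628.7 CPM in non-LRC libraries, and the sum was lower in the LLRC library in 4 of 4 mice, also without S100a8. This neutrophil gene made up 85.9 CPM in the LLRC and 570.5 CPM in the non-LRC library of JV621. Acinar enzymes reached 2404 CPM in the non-LRC library of JV6314, against at most 24.1 CPM in every other library. The part of these cells in the values that follow was not tested.

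Of the 10 genes, Rbl2 alone had all LLRC libraries above all non-LRC libraries, as did 2.15% of all genes tested, and it stood at 2.25 times the non-LRC level. Cdkn1b was the most abundant of them in both groups and had nearly the same mean in both. This near equality depended on the non-LRC library of JV621. The Ink4 genes were read weakly or not at all, and Cdkn2a had no read in any library. In edgeR's quasi-likelihood test over 13605 genes, 8 of the 10 passed the expression filter and 0 of these 8 had an adjusted p below 0.05, as did 0.0% of all genes tested. At an unadjusted p below 0.05 there was 1 of the 8, against 5.16% (702) of all genes tested. Of the same 8, DESeq2 called 1 (1.62% of all genes tested), and the exact test (1.17%) and likelihood ratio test (1.26%) of edgeR and limma (0.0%) called 0. The median log2 fold change of the 8 genes (LLRC over non-LRC) was -0.09 beside -0.01 over all genes tested.

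**Figure D1:**
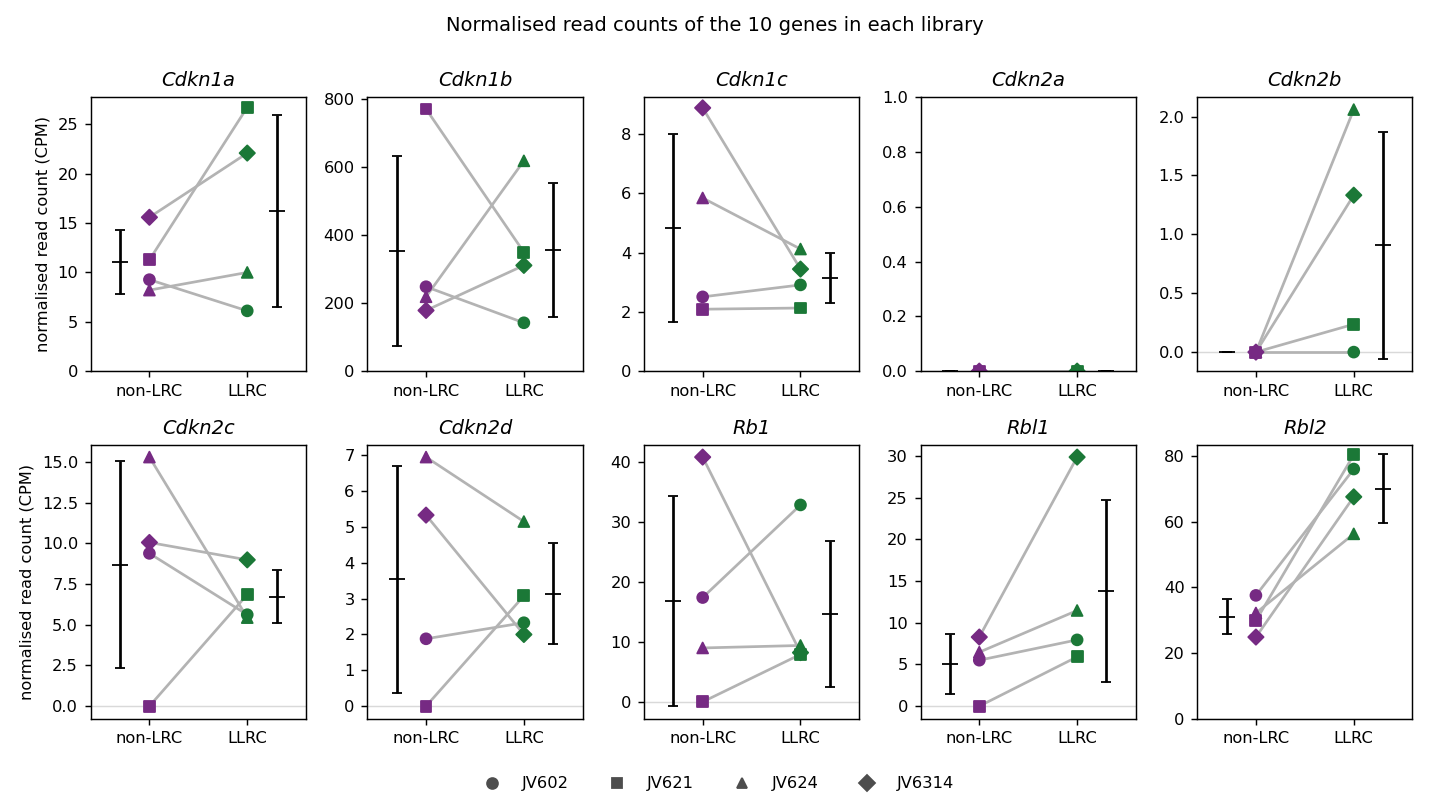
Normalised read counts (CPM, linear axes that differ between genes) of the 10 genes in the 4 non-LRC (purple) and 4 LLRC (green) libraries, with a line joining the libraries of each mouse and, at the side of each group, its mean and SD. In Rbl2 all 4 lines go up, from between 24.9 and 37.6 CPM to between 56.3 and 80.4 CPM, while the lines of Cdkn1b cross.

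Rbl2 encodes p130, the pocket protein that predominates in resting cells. Its locus is chromosome 8, 91070057 to 91123844 (GRCm38, plus strand), and has 7.558 kb of exon. Its normalised read counts in LLRCs of the mice JV602, JV621, JV624 and JV6314, an order kept throughout, were 76.1, 80.4, 56.3 and 67.6 CPM, and in the non-LRC libraries 37.6, 29.9, 32.2 and 24.9 CPM. The groups did not overlap. Such a gap in this direction was found in 2.15% of all genes tested. The log2 ratios within the mice were 1.00, 1.40, 0.79 and 1.41, so that Rbl2 was higher in LLRCs in 4 of 4 mice, as were 7.74% of all genes tested. The means were 70.1 ± 10.6 CPM and 31.1 ± 5.28 CPM, and the log2 fold change was 1.17 (standard error, SE, 0.27, 95% interval 0.55 to 1.79). In edgeR's quasi-likelihood test the unadjusted p was 0.00202, the rank of the gene 98 among 13605, and the adjusted p 0.275. An exact permutation test of the libraries gave p = 0.029 (two-sided), the smallest that 4 libraries against 4 allow. Here and below this test exchanged libraries across mice and did not use their pairing. With the mouse as a block, edgeR gave a fitted log2 fold change of 1.17 (SE 0.30) and an adjusted p of 0.696. DESeq2's Wald test, which called 0.36% of all genes as higher in LLRCs, gave an adjusted p of 0.000433. The difference in Rbl2 was thus larger than the spread between libraries, but passed the correction over all genes in DESeq2 only.

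The spread of Rbl2 within the groups was small for these libraries. Its coefficient of variation was 15.1% in LLRCs and 17.0% in non-LRC cells, where the median over 8339 genes with a mean of at least 10 CPM was 26.4% and 50.4%. The non-LRC library of JV621, in which many other transcripts were missing, held 143 Rbl2 counts. Without that library the log2 fold change was 1.15, with an adjusted p of 0.209 from edgeR. In GENCODE M21, 20.97% of the exon bases of Rbl2 are shared with Aktip or Gm45464 on the opposite strand. The counting without strand leaves out a read that falls on exons of both Rbl2 and Aktip. Gm45464 has no row in the count table, so the share of bases that bears on the counting is no larger than this. Aktip itself stood at 150.5 ± 17.3 CPM in LLRCs against 132.4 ± 67.8 CPM in non-LRC cells (log2 fold change 0.18, SE 0.37, adjusted p = 0.99988 in edgeR).

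Rbl1 encodes p107, which shares the pocket and many partners with p130 and is usually more abundant in dividing cells. The gene is on chromosome 2 (minus strand, 157145893 to 157204534). It stood at 7.95, 5.91, 11.5 and 29.9 CPM in LLRCs, in the same order of mice, and at 5.51, 0, 6.47 and 8.29 CPM in the non-LRC libraries. Rbl1, too, was higher in LLRCs in 4 of 4 mice, with log2 ratios of 0.46, 2.79, 0.74 and 1.73, but the groups overlapped. The log2 fold change of 1.44 (SE 1.02, 95% interval -0.85 to 3.73) did not exceed the spread between libraries (adjusted p = 0.99988 in edgeR, exact permutation p = 0.143, two-sided). The size rested on a pair of libraries. Without the LLRC library of JV6314, which held 269 of the 479 LLRC counts, the log2 fold change was 0.73, and it was 1.03 when the non-LRC library of JV621, which had no Rbl1 read, was left out.

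The promoters of both genes, which were higher in LLRCs in each mouse, are shown with that of Cdkn1b, the most abundant member, because E2F sites are the classical link between pocket proteins and their target genes. RefSeq promoter sequences (GRCm38.p6) were matched for 8 of the 10 genes, and those of Cdkn1c and Rb1 were not analysed here. In the 250 bases before each start, both strands were searched for E2F sites (TTTCGCGC, TTTGGCGC, TTTCCCGC or TTTGCCGC), for the cell cycle homology region bound by MuvB (TTTGAA) and for the CCAAT box. Sequences are given 5′ to 3′ along the gene's strand, capitals mark every match, and no matches overlap. They lie at chr8:91069807-91070056 on the plus strand for Rbl2, chr2:157204535-157204784 on the minus strand for Rbl1 and chr6:134920151-134920400 on the plus strand for Cdkn1b.
Rbl2: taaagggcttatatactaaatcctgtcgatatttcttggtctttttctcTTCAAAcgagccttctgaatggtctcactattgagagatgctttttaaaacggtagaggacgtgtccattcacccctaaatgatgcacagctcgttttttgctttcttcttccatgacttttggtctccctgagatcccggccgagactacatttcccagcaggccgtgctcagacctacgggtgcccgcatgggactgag
Rbl1: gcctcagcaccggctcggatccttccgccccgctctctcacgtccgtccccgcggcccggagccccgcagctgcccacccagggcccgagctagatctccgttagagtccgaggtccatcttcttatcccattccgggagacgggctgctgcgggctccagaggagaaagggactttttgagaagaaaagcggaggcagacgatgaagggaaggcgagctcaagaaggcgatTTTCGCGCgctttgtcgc
Cdkn1b: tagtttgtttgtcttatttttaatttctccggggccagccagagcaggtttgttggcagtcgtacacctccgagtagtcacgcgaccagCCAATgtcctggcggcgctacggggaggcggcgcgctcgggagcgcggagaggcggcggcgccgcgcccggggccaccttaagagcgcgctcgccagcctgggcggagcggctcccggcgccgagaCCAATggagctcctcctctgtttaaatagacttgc
The Rbl1 promoter had an E2F match, TTTCGCGC, from 18 to 11 bases before the start, where 1.86% of 32851 promoters held an E2F match. The only other member with one was Cdkn2a, in 1 of its 2 promoters. Rbl2 had TTCAAA, the homology region read on the other strand, at 201 to 196 bases before the start, as 15.99% of promoters had in either orientation. Cdkn1b had CCAAT at 161 and at 35 bases before the start, and 33.9% of promoters held that box. A match in these windows is a description of letters and not a measured site.

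Rb1 encodes RB itself, the founding tumour suppressor of the family, and is on chromosome 14 (minus strand, 73183673 to 73325822). Single libraries stood far above the rest in both groups. The LLRC libraries stood at 32.9, 7.92, 9.41 and 8.22 CPM and the non-LRC libraries at 17.4, 0, 8.997 and 40.8 CPM, in the order of mice given above. JV602 was the high mouse among LLRCs and JV6314 among non-LRC cells. The log2 fold change was -0.20 (SE 1.13, 95% interval -2.76 to 2.36, adjusted p = 0.99988 in edgeR), and the interval spans 0.148 to 5.12 times the non-LRC level. Within the mice Rb1 was higher in LLRCs in 3 of 4 (2 of 4 when scaled by library size only), and with the mouse as a block the estimate was 0.63. Its sign also turned with the library left out. Without the LLRC library of JV602 it was -0.98, and it was 0.72 when the non-LRC library of JV6314 was left out. Of the exon bases of Rb1, 14.9% are shared with Rcbtb2 or Lpar6.

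Pocket protein transcripts were then compared with each other per length, as CPM per kilobase of exon. Rbl2 stood at 9.28 ± 1.41 CPM per kilobase in LLRCs and 4.12 ± 0.70 CPM per kilobase in non-LRC cells. Rb1 stood at 2.43 ± 2.03 and 2.80 ± 2.91 CPM per kilobase, and Rbl1 at 2.30 ± 1.83 and 0.846 ± 0.596 CPM per kilobase. Rbl2 was therefore the largest in each LLRC library, with between 58.5% and 82.2% of the summed level of the 3 genes. In non-LRC libraries its share ranged from 28.7% in JV6314, where Rb1 made up 59.2%, to 100% in JV621, where Rb1 and Rbl1 had no read. The summed level was between 10.9 and 16.9 CPM per kilobase in LLRC libraries and between 3.95 and 11.5 CPM per kilobase in non-LRC libraries, so that the sums overlapped although those of Rbl2 did not.

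**Figure D2:**
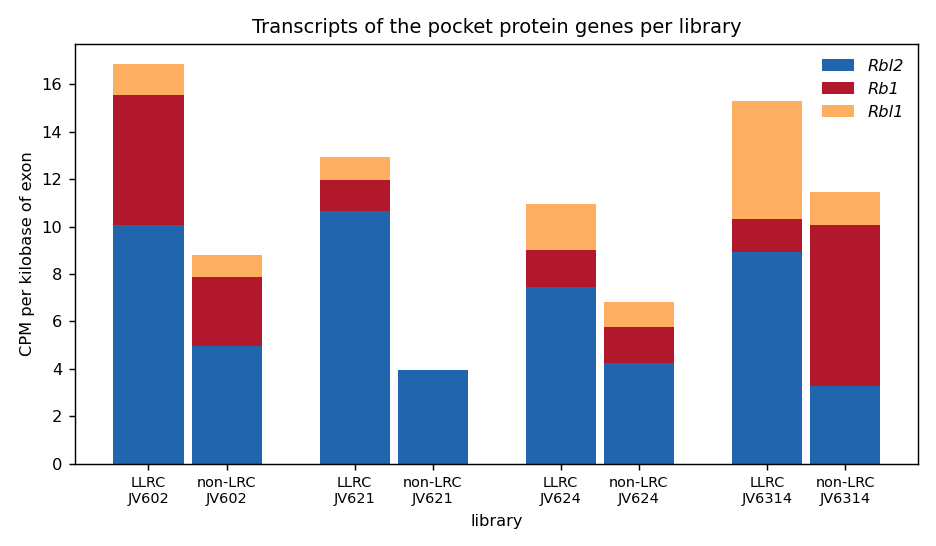
Levels of Rbl2 (blue), Rb1 (red) and Rbl1 (orange) in CPM per kilobase of exon, stacked, in each library, with the LLRC and non-LRC libraries of a mouse side by side. The blue part is higher in the LLRC library of each mouse, at 7.45 to 10.6 against 3.29 to 4.97 CPM per kilobase, while the red part varies from 0 to 6.79.

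Cdkn1b encodes p27, a Cip/Kip inhibitor that holds cyclin E with CDK2 inactive in resting cells and is controlled largely by breakdown of the protein. It is on chromosome 6 (plus strand, 134920401 to 134925513). Normalised read counts were 142.1, 349.6, 618.1 and 310.8 CPM in LLRCs, and 248.1, 770.5, 218.5 and 178.4 CPM in the non-LRC libraries. The highest and the lowest of these values were in opposite groups, and LLRCs were higher in 2 mice and lower in the other 2, with log2 ratios of -0.80, -1.14, 1.496 and 0.80. The group means of 355.1 ± 197.1 CPM and 353.9 ± 279.3 CPM gave a fitted log2 fold change of 0.01 (SE 0.57, 95% interval -1.28 to 1.29, adjusted p = 0.99988 in edgeR). The interval spans 0.412 to 2.44 times the non-LRC level, so that a smaller difference was not detectable. The equal means depended on the non-LRC library of JV621, at 770.5 CPM. Without it the non-LRC mean was 215.0 CPM and the log2 fold change was 0.72 (adjusted p = 0.723 in edgeR).

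Per length, Cdkn1b exceeded every other member in every library. It stood at 78.0 ± 43.3 CPM per kilobase in LLRCs and 77.7 ± 61.3 CPM per kilobase in non-LRC cells, above 95.6% of 13561 tested genes with a known exon length, and made up between 81.8% and 97.6% of the summed Cip/Kip level. The summed level of the kinase genes Cdk2, Cdk4 and Cdk6 was between 30.7 and 35.7 CPM per kilobase in all 8 libraries. Most of it was Cdk4, at 22.1 to 29.4 CPM per kilobase, while Cdk2 ranged from 2.15 to 3.81 and Cdk6 from 1.85 to 6.41 CPM per kilobase. The ratio of Cdkn1b to this sum was 0.874, 2.39, 4.43 and 2.17 in LLRC libraries and 1.70, 5.02, 1.52 and 1.17 in non-LRC libraries. It exceeded 1 in 7 of 8 libraries, and its order among them was that of Cdkn1b. These are ratios of transcripts, and protein was not measured.

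**Figure D3:**
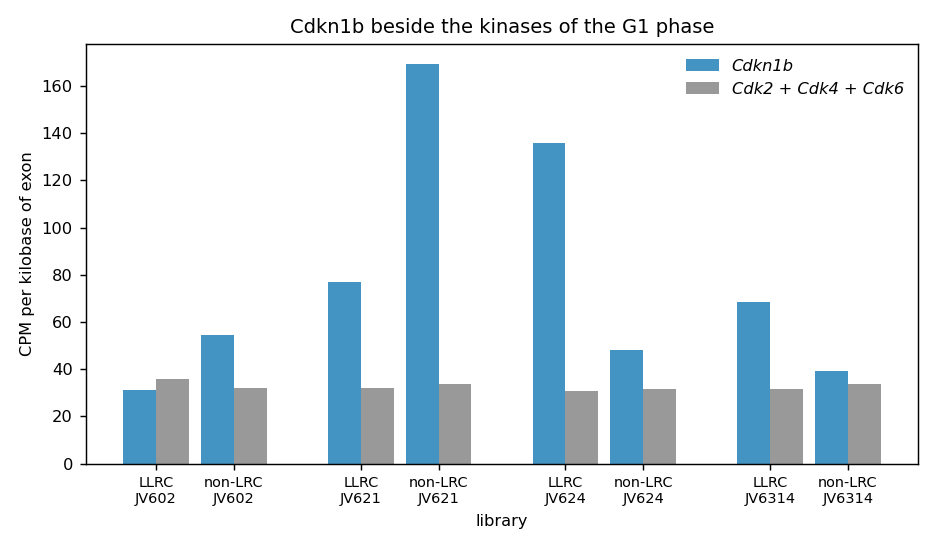
Level of Cdkn1b (blue) and the summed level of the kinase genes Cdk2, Cdk4 and Cdk6 (grey) in CPM per kilobase of exon in each library. The grey bars lie between 30.7 and 35.7 while the blue bars range from 31.2 in the LLRC library of JV602 to 169.3 in the non-LRC library of JV621.

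Cdkn1a encodes p21, the Cip/Kip inhibitor that p53 induces after DNA damage, and is on chromosome 17 (plus strand, 29090976 to 29100727). LLRC libraries stood at 6.11, 26.7, 10.001 and 22.1 CPM and non-LRC libraries at 9.27, 11.3, 8.21 and 15.6 CPM. The LLRC libraries of JV621 and JV6314 were above all others, and that of JV602 was below all others. The log2 fold change was 0.55 (SE 0.53, 95% interval -0.64 to 1.74, adjusted p = 0.99988 in edgeR), and the ratio was higher in 3 of 4 mice (2 of 4 when scaled by library size only). Without the LLRC library of JV621 it was 0.20. Cdkn1c encodes p57, an inhibitor expressed from the maternal copy of an imprinted region, and is on chromosome 7 (minus strand, 143458339 to 143461050). It was low, with 2.91, 2.13, 4.12 and 3.44 CPM in LLRCs against 2.505, 2.09, 5.84 and 8.88 CPM in non-LRC cells. The values overlapped, and the log2 fold change was -0.61 (SE 0.61, 95% interval -1.98 to 0.76, adjusted p = 0.99988 in edgeR). In GENCODE M21, exons of Cdkn1c share 30.7% of their bases with Gm44732 on the opposite strand. Gm44732 has no row in the count table, so this overlap is not taken as a limit on the counts of Cdkn1c.

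The Ink4 genes were scarce. Cdkn2a, whose row covers both the CDK inhibitor p16 and the unrelated protein ARF, is on chromosome 4 (minus strand, 89274471 to 89294653) and had 0 counts in all 8 libraries, which allows a level of up to between 0.291 and 0.626 CPM, depending on the library. Its neighbour Cdkn2b (chromosome 4, 89306299 to 89311039, minus strand), which encodes p15, an inhibitor induced by TGF-beta, had 0, 2, 14 and 12 counts in LLRCs and 0 counts in each non-LRC library. The reads of Cdkn2b came almost entirely from the LLRC libraries of JV624 and JV6314, at 2.06 and 1.33 CPM. Against a floor of 3 counts in each non-LRC library its LLRC mean was at least 1.75-fold higher, a bound that fell to 1.01-fold without the LLRC library of JV624. The bound takes the LLRC mean as read, although the LLRC libraries of JV602 and JV621 were also under 3 counts. Cdkn2b did not pass the filter, and the groups were not distinguished (exact permutation test, two-sided, p = 0.143). Looser filters kept Cdkn2b through its LLRC reads alone, so a test after them is not taken as support for a difference. There edgeR's quasi-likelihood test gave an adjusted p of 0.695 at a minimum of 1 CPM in 2 libraries, and 0.633 without a filter.

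Cdkn2c encodes p18 and is on chromosome 4 (minus strand, 109660876 to 109667189), away from Cdkn2a and Cdkn2b. It stood at 5.62, 6.86, 5.44 and 8.99 CPM in LLRCs against 9.39, 0, 15.3 and 10.1 CPM in non-LRC cells. It was lower in LLRCs in 3 of 4 mice, and the non-LRC library of JV621 had no read of it. The log2 fold change was -0.37 (SE 0.99, adjusted p = 0.99988 in edgeR), and its sign was not stable. It was -0.78 without the non-LRC library of JV621, 0.047 without that of JV624 and 0.15 with the mouse as a block. Cdkn2d, which encodes the Ink4 protein p19 and is on chromosome 9 (minus strand, 21288410 to 21291407), stood at 2.33, 3.08, 5.15 and 2.00 CPM and at 1.88, 0, 6.95 and 5.33 CPM. Its log2 fold change was -0.18 (SE 1.01, adjusted p = 0.99988 in edgeR), and LLRCs were higher in 2 mice and lower in the other 2. It was -0.59 without the non-LRC library of JV621, 0.37 without that of JV624, 0.080 without that of JV6314 and 0.38 with the block. Summed per length, the Ink4 genes reached between 3.57 and 6.78 CPM per kilobase in LLRC libraries and between 0 and 10.1 CPM per kilobase in non-LRC libraries. This was at most 0.353 of the summed level of Cdk4 and Cdk6, the kinases that they bind, in any library.

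**Figure D4:**
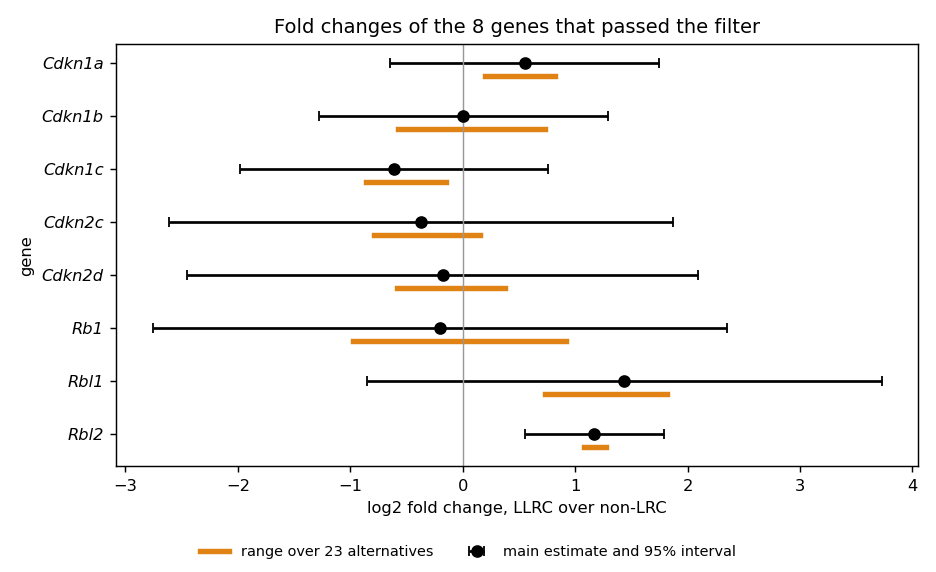
Log2 fold changes (LLRC over non-LRC) of the 8 genes that passed the filter, as point and 95% interval from edgeR's quasi-likelihood fit (black), with the range of the estimate over 23 alternatives below (orange). The interval of Rbl2, 0.55 to 1.79, lies above 0, and those of the other 7 include 0.

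In order of mean level per length, LLRCs had Cdkn1b, Rbl2, Cdkn1a, Cdkn2c, Rb1, Rbl1, Cdkn2d, Cdkn1c, Cdkn2b and Cdkn2a. Non-LRC cells had Cdkn1b, Rbl2, Cdkn2c, Cdkn1a, Rb1, Cdkn1c, Cdkn2d and Rbl1, followed by Cdkn2b and Cdkn2a without a read. Only the step from Cdkn1b to Rbl2 separated neighbours whose ranges over libraries did not overlap, in both groups. Rbl2 was above 68.6% of the 13561 genes in LLRCs and above 47.0% in non-LRC cells. Cdkn1a stood at 4.57 ± 2.75 CPM per kilobase in LLRCs and 3.12 ± 0.92 CPM per kilobase in non-LRC cells, and Cdkn2c at 2.51 ± 0.61 and 3.24 ± 2.37 CPM per kilobase. Cdkn2d stood at 1.99 ± 0.90 and 2.25 ± 2.01 and Cdkn1c at 1.54 ± 0.41 and 2.37 ± 1.56 on the same scale. In these bulk samples, fewer cells that express a gene and less of its RNA per cell cannot be told apart.

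The most abundant gene of each class was set beside all 8339 genes with a mean of at least 10 CPM, by Pearson's r of log2(CPM + 1) over the 8 libraries, which differ in depth and come in pairs from the same mice. The genes most like Cdkn1b were Srp19, a subunit of the signal recognition particle (r = 0.973), and Dld, the dihydrolipoamide dehydrogenase of mitochondria (r = 0.962). Rbl2 was most like Gars, the glycyl-tRNA synthetase (r = 0.970), and Slc35g2 (r = 0.942), which stood at 30.7 CPM in LLRCs against 18.9 CPM in non-LRC cells. Cdkn2c was most like Dusp22 (r = 0.983) and Zfp318 (r = 0.980). The likeness of Cdkn2c to these rested partly on the library in which they were jointly low, and r fell to 0.870 and 0.826 without that library, the non-LRC one of JV621.

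The partners of these proteins were followed in lists of pathway genes, in none of which a gene had an adjusted p below 0.05 in edgeR's quasi-likelihood test. Of 12 G1 cyclins and CDKs, 11 were tested, and the median log2 fold change was 0.07 with 0 at an unadjusted p below 0.05. Cdc25a, the phosphatase that activates CDK2, had 16.8 ± 2.46 CPM in LLRCs against 5.62 ± 6.49 CPM in non-LRC cells (log2 fold change 1.57, SE 0.88) and was higher in 4 of 4 mice, as 7.74% of all genes tested. Cdk6 had an estimated log2 fold change of 0.40 (SE 0.37). The cyclins that start the pathway were read at 42.0 ± 3.29 and 35.4 ± 7.204 CPM per kilobase for Ccnd2 and 19.0 ± 5.69 and 18.1 ± 5.50 CPM per kilobase for Ccnd1, in LLRCs and non-LRC cells, and were named after their values were seen.

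Of 10 E2F and DP genes 6 were tested, and 3 had higher and 3 lower estimates. Tfdp2, a dimer partner of E2F, had an estimated log2 fold change of -0.88 (SE 0.70) and E2f3, an activating E2F, one of -1.08 (SE 1.33). With the mouse as a block these were -0.25 and -0.60. The non-LRC library of JV621 held 1137 counts of Tfdp2, the most of any library. E2f5 and E2f4, the E2Fs that p130 binds, were chosen after their values were seen. E2f5 stood at 56.3 ± 11.1 and 56.6 ± 24.9 CPM per kilobase in LLRCs and non-LRC cells, and E2f4 at 1.63 ± 0.37 and 1.34 ± 0.57 CPM per kilobase. Their log2 fold changes were -0.01 (SE 0.36) and 0.28 (SE 0.52). Of the 8 MuvB, Myb and Foxm1 genes 5 were tested, 4 with higher and 1 with a lower estimate and a median of 0.40. Lin54, the DNA-binding subunit of MuvB, had 17.7 ± 8.66 and 6.33 ± 8.07 CPM (log2 fold change 1.49, SE 1.08) and Rbbp4, a histone-binding subunit, 57.1 ± 10.2 and 47.9 ± 9.99 CPM (0.25, SE 0.29). Both were higher in LLRCs in 4 of 4 mice, as were 7.74% of all genes tested.

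Tested genes that E2F and these repressors control were near 0 on balance. Of 24 targets 16 were tested, 8 with higher and 8 with lower estimates, and the median was -0.04. The rest, among them Mki67, Ccna2, Ccnb1, Plk1 and Aurkb, were too weakly read to pass the filter and were not assessed. Cdc20, an activator of the anaphase-promoting complex, stood at 1.56 ± 0.59 CPM in LLRCs against 3.19 ± 1.58 CPM in non-LRC cells (log2 fold change -1.02, SE 0.59). Cdt1, which loads the replicative helicase, stood at 2.20 ± 1.34 and 0.893 ± 0.903 CPM (1.26, SE 0.94). Among 14 chromatin partners of the pocket proteins, all tested, the median was 0.12, and Arid4b, an RB-binding protein, and the deacetylase Hdac2 had log2 fold changes of 0.73 (SE 0.34) and 0.64 (SE 0.42).

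Regulators of the inhibitors were compared in the same way. Of 18 genes of p53 and its targets 15 were tested, and their median log2 fold change was 0.15. The death receptor Fas, at 10.7 ± 6.47 CPM in LLRCs against 33.6 ± 21.95 CPM in non-LRC cells, was lower in LLRCs in 4 of 4 mice, as 5.53% of all genes tested (log2 fold change -1.65, SE 0.66, unadjusted p = 0.0325, adjusted p = 0.893 in edgeR), and Sesn2, a stress-induced sestrin, had an estimate of 1.73 (SE 0.92). Of 14 genes of p27 turnover and FoxO factors 13 were tested, with a median of 0.03. The list pools genes that lower p27 with genes that raise it, so this median does not measure turnover. Skp2, the ubiquitin ligase subunit that marks p27 for breakdown, had 2, 47, 18 and 88 counts in LLRCs against 13, 0, 0 and 2 counts. It was higher in 3 of 4 mice (log2 fold change 3.05, SE 1.38, unadjusted p = 0.0538, adjusted p = 0.964 in edgeR). Foxo1, which activates Cdkn1b transcription, had an estimated log2 fold change of -1.28 (SE 0.63), and -0.80 with the mouse as a block. It was higher in LLRCs in 2 of 4 mice. Its non-LRC counts were 294, 850, 118 and 310, the highest in JV621.

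Of 19 regulators of the Cdkn2a and Cdkn2b locus 17 were tested, with a median of -0.03, and 2 had all LLRC libraries above all non-LRC libraries, beside 2.15% of all genes tested. Cbx8, a Polycomb subunit, had 42, 36, 11 and 14 counts in LLRCs against 8, 0, 1 and 0 counts (log2 fold change 3.11, SE 1.08, adjusted p = 0.749 in edgeR). At no more than 1.00 CPM in non-LRC libraries, it passed the filter through its LLRC libraries alone. Its gap and estimate are therefore given as description and not as support for a difference. Kdm2b, a histone demethylase that recruits a Polycomb complex, stood at 8.82 ± 1.74 and 3.03 ± 1.63 CPM (log2 fold change 1.53, SE 0.56, unadjusted p = 0.0223, adjusted p = 0.794 in edgeR). Both of these repressors act on many loci, and Cdkn2a was unread in either group.

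In the imprinted domain of Cdkn1c 7 of 9 genes were tested, with a median of -0.07. Nap1l4, a histone chaperone gene of that domain, stood at 55.7 ± 9.95 CPM in LLRCs against 82.9 ± 20.6 CPM in non-LRC cells, with all LLRC libraries below all non-LRC libraries, as 1.91% of all genes tested (log2 fold change -0.57, SE 0.28, adjusted p = 0.99988 in edgeR). Of 12 genes linked to senescence 6 were tested, with a median of -0.80. Igfbp3 and Igfbp7, secreted binding proteins of insulin-like growth factors, stood at 2.35 ± 1.90 against 26.8 ± 17.0 CPM (log2 fold change -3.51, SE 0.96, adjusted p = 0.414 in edgeR) and 32.0 ± 14.5 against 77.0 ± 32.3 CPM (-1.26, SE 0.45, adjusted p = 0.771). Both are also read in endothelial cells, whose markers had lower sums in LLRCs, and the part of such cells was not tested. Of 20 immediate early genes 19 were tested, with a median of -0.0026. Klf2, which is also prominent in endothelium, had an estimated log2 fold change of -2.32 (SE 0.77, adjusted p = 0.688 in edgeR) and Hspa1b, a heat shock gene, one of -1.71 (SE 1.13). With the mouse as a block the estimate of Hspa1b was -0.48. Hspa1b was higher in LLRCs in 2 of 4 mice, and the non-LRC library of JV621 held 389 of its counts.

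**Figure D5:**
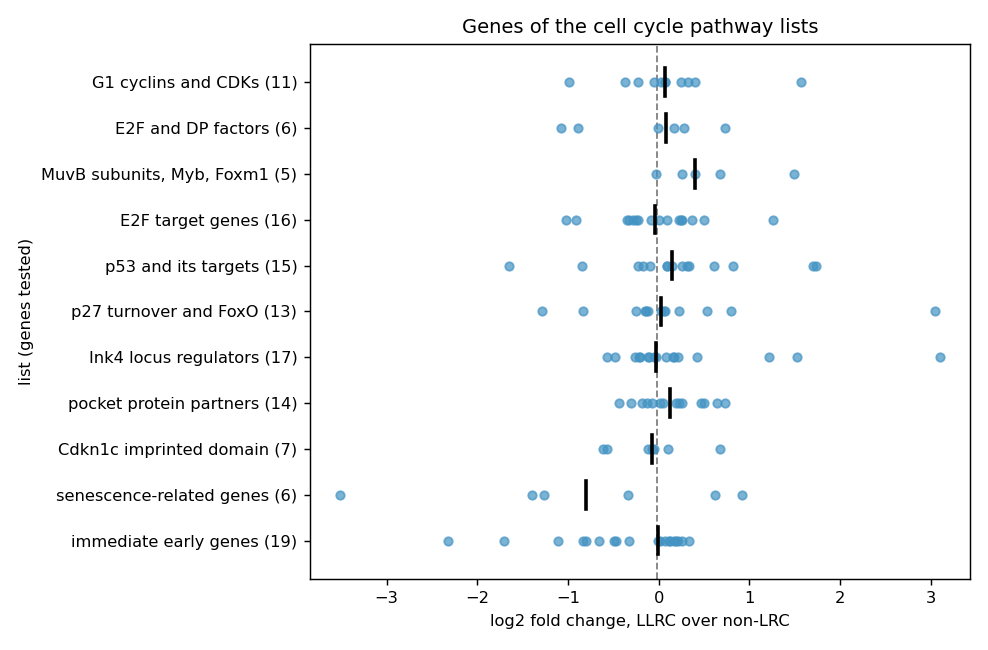
Log2 fold changes (LLRC over non-LRC) of the tested genes of 11 pathway lists, 1 point per gene, with the number tested in brackets, the list median as a black bar and the median of all 13605 genes (-0.01) as a dashed line. Medians lie between -0.80 for the senescence-related genes and 0.40 for the MuvB list, and no point passed an adjusted p of 0.05.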

How the data were processed

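RNA of sorted LLRCs and non-LRC cells (4 libraries each) was extracted by the authors with a kit for small samples and sequenced and mapped at a service facility. The aligner is not given in the sources used here. The authors used HTSeq 0.5.3p9 (union mode, strand ignored) on exons of GRCm38.p4, and deposited raw, whole-number counts without normalization. A deposited table of their edgeR 3.2.4 comparison (fold changes and p-values) was not used. Symbols and exon lengths were taken from GENCODE M21 (46091 of 46603 identifiers had a symbol).

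Library sizes were scaled by TMM (factors 0.816 to 1.23), 13605 genes passed filterByExpr, and groups were compared with edgeR 4.0.16 (R 4.3.3), quasi-likelihood test, with no term but the group, Benjamini-Hochberg adjustment over all genes tested and a threshold of 0.05. DESeq2 1.42.0 and limma 3.58.1 gave alternatives. Levels between genes are CPM per kilobase of merged exons. Ratios within mice used log2(CPM + 1). Named were all members, each list's 2 genes with the smallest unadjusted p, unless a gene passed the threshold, and for the most abundant gene of each class the 2 genes with the highest r. Of marker lists, the rule named Epcam, Krt19, Ptprc and the gene with the highest mean of each other list, of which Alb, Ptprb, Rgs5 and Amy2a5 stood at 2336, 16.8, 6211 and 0.231 CPM in LLRCs against 2319, 228.5, 4177 and 219.7 CPM in non-LRC cells. The cholangiocyte list (21 genes) had a median log2 fold change of 0.29, hepatocyte -1.22, endothelial -3.69, stellate and fibroblast -1.90, leukocyte -0.15 (4 tested) and acinar -1.96 (1 tested). The members and lists were chosen with earlier results of these data known. The libraries of a number come from the same mouse, so the numbers pair them. Across genes, the paired libraries' departures from the mean of their group had correlations of 0.0961, 0.0737, 0.00334 and 0.171. The fits were tested on simulated data.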

Additional observations from a re-analysis of the deposited data

Results flagged for a closer look

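Among 17 groups of 4 libraries examined, 2 held a value far from the other 3 libraries by Dixon's criterion, where chance gives about 1 in 20. Cdkn1b stood at 770.5 CPM (3690 counts) in the non-LRC library of JV621, and between 178.4 and 248.1 CPM in the other non-LRC libraries. Rb1 stood at 32.9 CPM (339 counts) in the LLRC library of JV602, and between 7.92 and 9.41 CPM in the other LLRC libraries. No explanation was tested for either value.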

How the results depend on the processing

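At an adjusted p below 0.05, edgeR's quasi-likelihood test called 0 genes (702 at an unadjusted p below 0.05), DESeq2 221, edgeR's exact test 159, its likelihood ratio test 171 and the fit without a filter 11. Leaving out 1 library at a time gave between 0 and 6 genes, 6 without the non-LRC library of JV602, and the other alternatives gave 0. The number of members called was 0 throughout, except 1 (Rbl2) in DESeq2. With the mouse as a replicate block no gene was called (569 at an unadjusted p below 0.05), and the block changed no other call. The settings that left out both libraries of a mouse were chosen after seeing the data.

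Over 23 alternatives the log2 fold change of Rbl2 was between 1.08 and 1.28 and its adjusted p between 0.000433 and 0.99988. Rbl1 (0.73 to 1.82), Cdkn1a (0.20 to 0.82) and Cdkn1c (-0.86 to -0.15) also kept their sign. Sign turned in 23 of 184 values, for Cdkn1b, Cdkn2c, Cdkn2d and Rb1, none of them called. Cdkn1b stood at -0.065 in DESeq2 and with its size factors, -0.013 with counts thinned to the smallest library and with library size only, -0.58 without JV624 and -0.16 without JV6314. With the replicate block the log2 fold change of Cdkn2c was 0.15, of Cdkn2d 0.38 and of Rb1 0.63. Cdkn2d was 0.021 in limma. Without both libraries of JV624, Cdkn2c was 0.14 and Cdkn2d 0.038, and without both of JV6314, Cdkn2d was 0.25 and Rb1 0.92. With single libraries left out, Cdkn1b ranged from -0.40 to 0.72, Cdkn2c from -0.78 to 0.047, Cdkn2d from -0.59 to 0.37 and Rb1 from -0.98 to 0.72. The cause was not tested. Other scalings moved the median of all genes by at most 0.07. Mean levels moved by over 1.5 times without 1 library for Rb1 (14.6 to 8.52 CPM in LLRCs without JV602, 16.8 to 8.80 CPM in non-LRC cells without JV6314), Rbl1 (13.8 to 8.44 CPM in LLRCs without JV6314), Cdkn1b (353.9 to 215.0 CPM in non-LRC cells without JV621) and Cdkn2b (0.907 to 0.523 CPM in LLRCs without JV624). The 30 mean ratios within mice moved by less than 1 SD between mice, but the number of mice with a higher level in LLRCs went from 3 to 2 for Cdkn1a and Rb1 with library size only and from 2 to 1 for Cdkn1c with DESeq2 size factors. For genes outside the set these numbers were computed with TMM only. Cdkn2a and Cdkn2b, at 0 to 14 counts a library, were not tested in the main setting.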
